A study of Mus musculus with 26 samples.

Results

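The collagen genes were taken from a table of 51124 genes measured in mouse testes as every protein-coding gene whose symbol is Col, a number, a and a number, which gave 44 genes. Of these, 11 encode fibrillar collagens, 8 encode collagens of basement membranes and 25 encode other collagens. The study knocked sites for piR-A, a piRNA of pachytene spermatocytes, into mice at the 3′ UTR of *Ythdc2* and sequenced total RNA of whole adult testes depleted of ribosomal RNA. There were 6 libraries, 2 for each of 3 genotypes. Their titles number the libraries without naming the animal, and each was taken to be a different mouse. Wild type testes (N1 and N2) carried no inserted site. *10xPerf* testes (N3 and N4) carried 10 tandem sites, separated by spacers, that pair with piR-A along its whole length, and *10xBulge* testes (N5 and N6) carried 10 such sites with mismatches opposite piR-A nucleotides 10 and 11. Both knock-in lines were made with CRISPR/Cas9 in hybrid B6D2F1/J embryos and kept homozygous, so every cell of the animal carried the insertion. The exact age of the mice, and whether the wild type mice were littermates, are not given in the sources used here. *Ythdc2*, which encodes an RNA helicase of meiotic germ cells and received the insertion, stood at 827 and 2412 normalized counts in wild type testes, 1334 and 1136 in *10xPerf* testes and 1202 and 2458 in *10xBulge*, so that its levels overlapped between genotypes. An insertion in the 3′ UTR does not remove the gene, and these levels do not check the labels.

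Collagens are proteins of the extracellular matrix in which 3 chains wind into a triple helix, and the helix requires that each triplet of residues starts with a glycine. Fibrillar collagens pack into the banded fibrils of connective tissue, type IV collagen forms the sheet-like network of basement membranes together with laminins and nidogens, and the fibril-associated collagens with interrupted helices (FACITs) bind to the surface of fibrils. In the testis a basement membrane and peritubular myoid cells surround each seminiferous tubule, Sertoli and myoid cells make the basement membrane, and fibroblasts and vessels lie in the interstitium between tubules.

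The glycine repeat is visible in the coding sequence, where each repeated triplet of codons starts with a codon of the form GGN. The 3 stretches below, 1 for each class, come from the longest repeat of a gene on which the results turn. Each is the first stretch of 3 triplets in that repeat that lies within 1 exon. They were read on the coding strand from the transcript with the longest coding sequence in the GENCODE M21 annotation of GRCm38, with the glycine codons in capitals.
*Col1a1*, fibrillar, chr11:94939697-94939723, plus strand, exon 7 of 51: GGTccttctGGTcctcgtGGTctccct
*Col22a1*, FACIT, chr15:71861023-71861049, minus strand, exon 45 of 64: GGTcccccaGGCctcccaGGTctgcca
*Col4a1*, basement membrane, chr8:11247069-11247095, minus strand, exon 3 of 52: GGAgaaagaGGCttgccaGGGttgcaa
In all 3 stretches a glycine codon opens each triplet of codons, and the classes differed in how long this pattern ran without a break. The longest unbroken run held between 216 and 344 triplets in the fibrillar genes (median 338), between 30 and 66 in the basement membrane genes (median 41) and between 32 and 113 in the FACITs (median 57). The lowest fibrillar values belonged to *Col24a1* and *Col27a1*, with 216 and 217 triplets. The 6 type IV chains had 23 to 27 separate runs each, whereas the fibrillar genes had 2 to 5. The plot of run lengths shows all 44 genes.

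**Figure D1:**
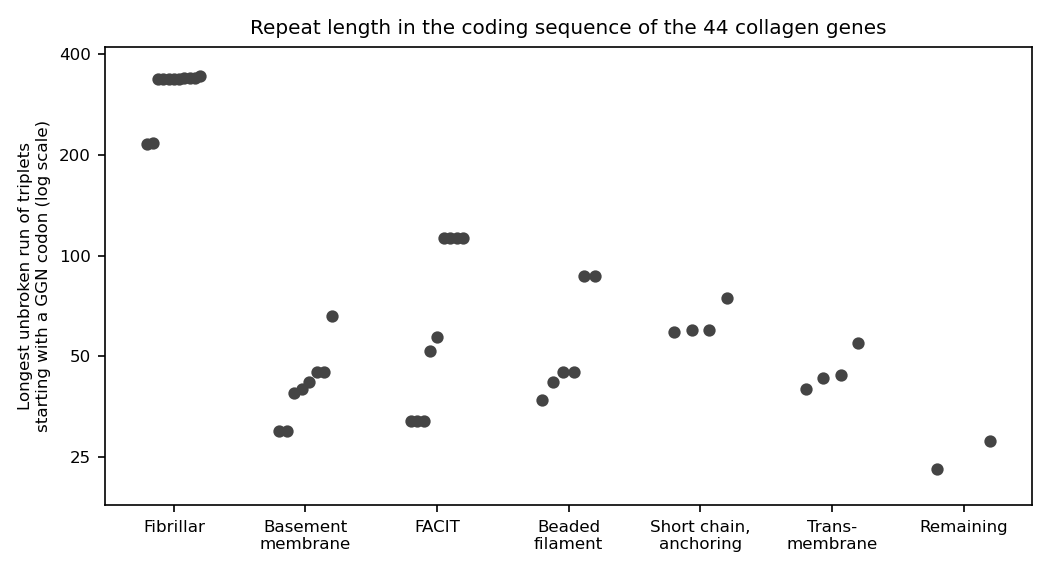
Longest unbroken run of triplets that start with a glycine codon in the coding sequence of each collagen gene, by class (vertical axis, number of triplets, log scale; each point is 1 gene; no replicate or error applies). The fibrillar genes sit at 216 to 344 triplets, above all genes of the other classes.

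The values are counts that the authors normalized with DESeq2, so that libraries are comparable but the values are no longer whole reads. From the value of the least abundant genes, the depth was about 41.1 to 61.6 M reads per library, and 3 reads were worth 2.73 to 3.63 normalized counts. Genes were tested where at least 2 of the 6 libraries reached 10 normalized counts, which kept 23782 genes and 42 of the 44 collagen genes. *Col9a2* ranged from 0 to 7.47 and *Col10a1* was at 2.76 in N2 and at 0 in the other libraries, and neither was tested. In 39 genes all 6 libraries reached 10, *Col7a1* and *Col13a1* reached it in 5, and *Col24a1* passed through N1 and N3 alone. Differences are given as log2 fold changes of the values plus 1, with the standard error (SE) and the Benjamini-Hochberg adjusted p of limma over all genes tested, at a threshold of 0.1. On this scale the change of a gene with low counts is understated. The spread is shared by all 6 libraries. Leaving out a library of the genotype not compared thus changes this spread and not the fold change.

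The *10xBulge* libraries differed from the others in their cell type markers, and 1 of them stood apart. The summed level of 10 spermatid markers was 499320 to 691383 in the wild type and *10xPerf* libraries and 1739 and 1053 in N5 and N6, and all 10 fell. Of 10 Sertoli cell markers 7 rose, with sums of 49478 to 71788 against 250927 and 113251, and so did 6 of 8 Leydig cell and 5 of 6 macrophage markers. Spermatocyte markers had a median log2 fold change of 0.075. N5 held 2878 normalized counts of 6 fat cell markers, against 315 to 1017 in the other 5 libraries, with *Lep* at 639 and *Cidec* at 568. None of the 6 rose past the threshold against wild type and 1 fell, beside 11.4% and 23.0% of all genes tested. In 2 of the 6 the difference from wild type was below 0. Against *10xPerf* 5 of the 6 rose, beside 12.9% of all genes tested. Of 8 epididymis markers, whose sum was 154 to 299 in the 6 libraries, *Lcn5* was at 0 in every library, *Rnase10* was at 138 to 252, *Spink8* was at 36.1 in N5 and 8.30 to 14.2 in the others, and the remaining 5 did not pass the filter (*Lcn8* was at 9.19 in N2 and at 0 elsewhere). Of the Sertoli markers 1 rose without N1, N2, N4 or N5, of the Leydig markers 1 without N1 and 2 without N5, and of the macrophage markers 2 without N1 or N2 and 3 without N5. The scale of the comparison depends on these shifts, since the median difference between *10xBulge* and wild type over the genes tested, -0.026 on the log2 scale as deposited, was -0.92 with the median of the Sertoli list set equal in all libraries and 0.35 with library totals. In whole testes fewer cells of a type and less RNA per cell cannot be told apart. The paper reports no effect on fertility in any of the homozygous knock-in lines. For the line with tandem mismatched sites it mentions occasional smaller litters and lower expression of postmeiotic genes. How far N5 and N6, with their low spermatid marker sums, represent that line was not tested.

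Levels of different collagen genes can be compared per kilobase (kb) of the longest annotated transcript. In wild type *Col22a1*, a FACIT, was first of all 44 genes with a mean of 1164 normalized counts per kb, and *Col20a1*, another FACIT, was second, ahead of the fibrillar *Col2a1*. The same 3 genes led in *10xPerf*, where *Col22a1* stood at 1260 per kb. In *10xBulge* the first ranks went to *Col18a1*, at 873 per kb, *Col1a2* and *Col4a1*, and *Col22a1* came 24th with 21.6 per kb. Both FACITs at the head of the wild type order thus left it in *10xBulge*, where *Col20a1* came 22nd. As a share of the summed counts of all 44 genes, *Col22a1* took 21.8% to 28.4% in the 4 wild type and *10xPerf* libraries and 0.599% and 0.531% in N5 and N6. *Col18a1* took 3.44% to 5.10% in those 4 libraries and 15.6% and 13.2% in *10xBulge*. The sum itself was 51083 and 36235 in wild type, 37408 and 41147 in *10xPerf* testes and 42896 and 23444 in *10xBulge*, and both *10xBulge* values lay inside or below the range of the others. The plot of values by library gives every gene that was tested.

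**Figure D2:**
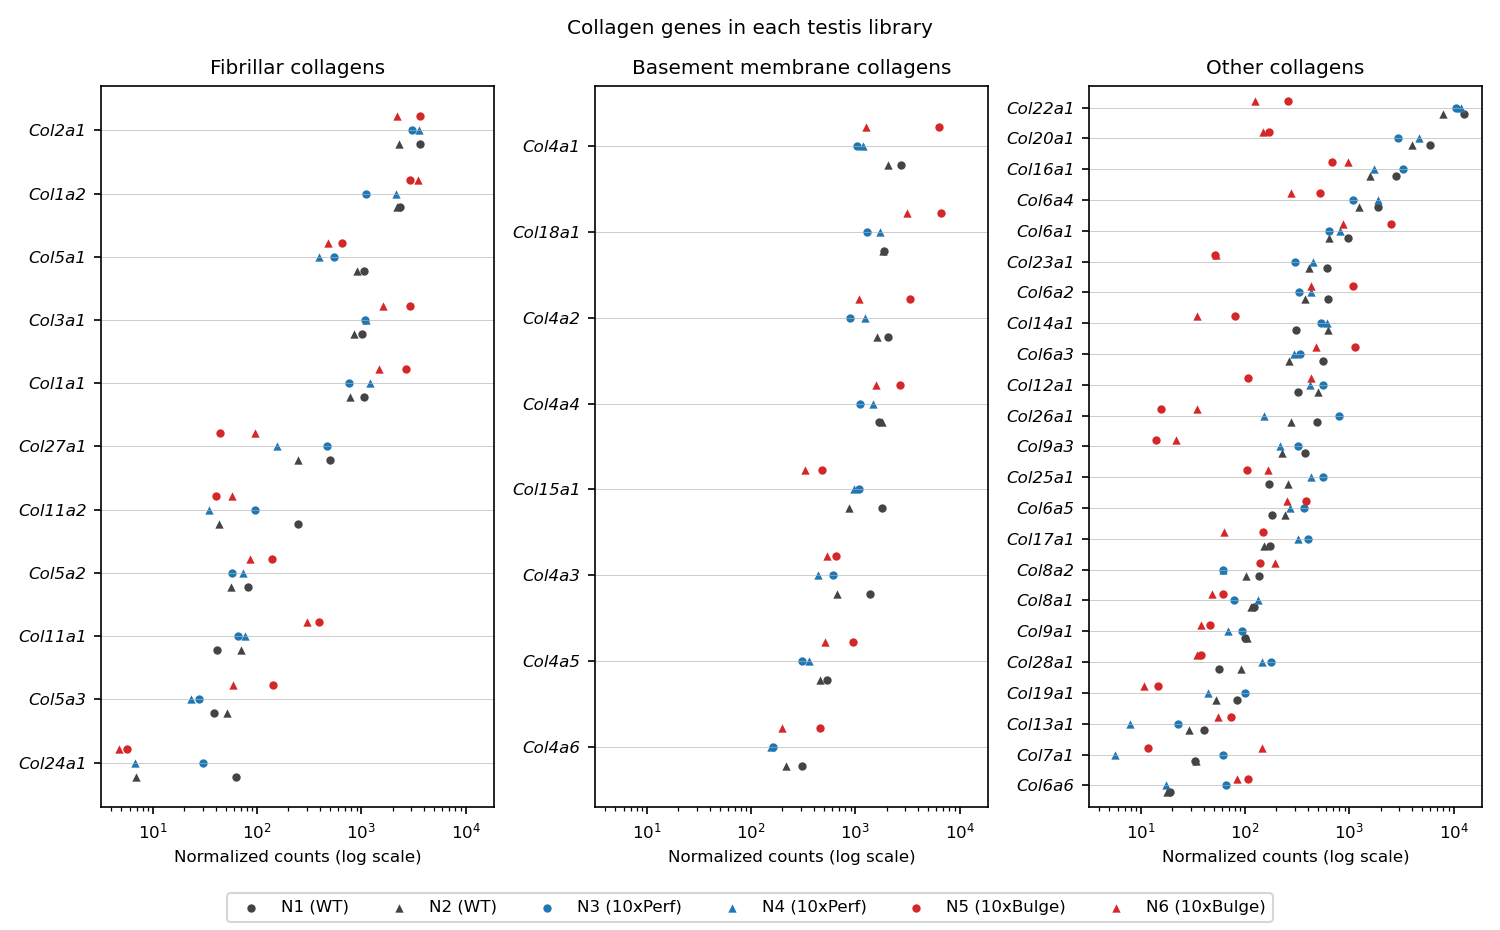
Normalized counts (horizontal axes, log scale) of the 42 tested collagen genes in each of the 6 libraries, by class; each point is 1 library, with no mean drawn. *Col22a1* and *Col20a1* stand at 2901 or more in the wild type and *10xPerf* libraries and at 257 or less in both *10xBulge* libraries, whereas *Col11a1* is higher in both *10xBulge* libraries.

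The comparison of *10xBulge* with wild type asks how testes with 10 mismatched sites differ from testes without a site. Of the 42 collagen genes tested, 5 rose (11.9%, against 11.4% of all genes tested) and 12 fell (28.6%, against 23.0%), so that the shares lay near those of all genes. The counts differed between the classes. Of the 11 fibrillar genes 3 rose and 1 fell, of the 8 basement membrane genes 1 rose and 1 fell, and of the 23 other genes 1 rose and 10 fell. The median log2 fold change was 0.49 for the fibrillar genes, 0.23 for the basement membrane genes and -0.96 for the others, beside -0.026 for all genes, and with the Sertoli list set equal the medians of these classes were -0.44, -0.69 and -1.86. The libraries of the 2 genotypes did not overlap in 11 genes that were higher in *10xBulge* (26.2%, against 28.9% of all genes) and in 19 that were lower (45.2%, against 33.2%). Without N5, 2 genes rose and 12 fell, and without N6, 9 rose and 12 fell. Of the 17 genes past the threshold, 7 remained past it under each of 13 other settings and without each of the 6 libraries in turn: *Col11a1*, which was higher, and *Col14a1*, *Col20a1*, *Col22a1*, *Col23a1*, *Col26a1* and *Col9a3*, which were lower.

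Among the fibrillar genes, *Col11a1*, the alpha 1 chain of type XI collagen, which sets the core of thin fibrils in cartilage, rose most. It stood at 40.99 and 69.4 normalized counts in wild type testes, 65.1 and 76.0 in *10xPerf* testes and 390.1 and 304 in *10xBulge*. Both *10xBulge* libraries were above the 4 others, by a log2 fold change of 2.67 against wild type (SE 0.47, 95% confidence interval 1.61 to 3.72, limma adjusted p = 0.00259), or a ratio of means of 6.28. *Col11a2*, the partner chain of the same collagen, was at 247 and 43.3 in wild type and 40.04 and 57.2 in *10xBulge*, and its spread between the wild type libraries exceeded its difference between genotypes.

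The 2 major collagens of loose connective tissue, types I and III, were also higher in *10xBulge*, by less. *Col3a1*, the only chain of type III, stood at 1006 and 849 in wild type, 1089.8 and 1120.2 in *10xPerf* testes and 2932 and 1624 in *10xBulge*, and rose by 1.24 (SE 0.42, limma adjusted p = 0.0584). *Col1a1*, of which type I collagen holds 2 copies per trimer, stood at 1058 and 778, 756 and 1212, and 2702 and 1490.0 in the same order, and rose by 1.14 (SE 0.46, limma adjusted p = 0.0981). In both genes the 2 *10xBulge* libraries lay above the rest and N5 was the higher of them. Both calls were lost when any library but N6 was left out, and the fold changes without N5 were smaller. Over the 6 omissions the fold change was 0.81 to 1.66 for *Col3a1* and 0.72 to 1.57 for *Col1a1*. Of 13 other settings, 9 kept the call for *Col3a1* and 6 that for *Col1a1*. Both calls were lost with the Sertoli or the spermatocyte list set equal, and over the 13 settings the limma adjusted p reached 0.567 and 0.693. *Col1a2*, the other chain of type I, had 2374 and 2189 in wild type, 1112 and 2134 in *10xPerf* testes and 2934 and 3491 in *10xBulge*. Its *10xBulge* libraries were also the highest, but the difference of 0.49 from wild type had a confidence interval of -0.48 to 1.46 (limma adjusted p = 0.437) and became -0.44 with the Sertoli list set equal. In *10xBulge*, 3 of 7 fibroblast and interstitial stroma markers rose as well (*Pdgfra*, *Dcn* and *Tcf21*), and the summed level of that list was 2403 to 4554 in the wild type and *10xPerf* libraries and 10180 and 5343 in N5 and N6. The other 4 did not pass the test, and *Pi16* among them was lower without overlap (374 and 224 in wild type, 166 and 156 in *10xBulge*). The median log2 level of the list overlapped, at 8.55 and 7.82 in wild type and 8.87 and 8.54 in N5 and N6. The part of these cells in the result was not tested.

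*Col27a1*, a fibrillar chain with a shorter helix, was the only gene of its class that fell. It stood at 503 and 249 in wild type, 467 and 154 in *10xPerf* testes and 44.5 and 94.8 in *10xBulge*, a log2 fold change of -2.43 (SE 0.65, limma adjusted p = 0.0233), and the call was lost without N1. *Col24a1*, the most similar chain by repeat length, was at 62.3 and 6.87 in wild type and 5.61 and 4.74 in *10xBulge*, near the value of 3 reads, and did not pass the test. The chains of type V collagen, which is built into type I fibrils, had differences of both signs, and none passed it. *Col5a1* was at 1068 and 916 in wild type and 655 and 483 in *10xBulge* (-0.81, SE 0.41, limma adjusted p = 0.173). *Col5a2* was at 81.3 and 56.2 against 139.8 and 84.6 (0.68, SE 0.49, limma adjusted p = 0.345), and *Col5a3* was at 38.97 and 52.01 against 142 and 59.1 (1.01, SE 0.57, limma adjusted p = 0.225). In all 3 genes the libraries of the 2 genotypes did not overlap, beside 28.9% of all genes that were higher without overlap and 33.2% lower. *Col2a1*, the main collagen of cartilage and the most abundant fibrillar gene per kb in wild type testis, was at 3620 and 2272 in wild type, 3067 and 3556 in *10xPerf* testes and 3615 and 2200 in *10xBulge*. The pairs covered nearly the same range, and the difference of -0.02 had a confidence interval of -1.001 to 0.95.

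Among the basement membrane genes, *Col18a1*, the chain of type XVIII collagen from which endostatin is cleaved, stood at 1891 and 1849 in wild type, 1286 and 1708 in *10xPerf* testes and 6671 and 3098 in *10xBulge*. Both *10xBulge* libraries were above all others, and the gene rose by 1.28 (SE 0.46, limma adjusted p = 0.0692), a ratio of means of 2.61. *Col15a1*, the chain of the closely related type XV collagen, stood at 1796 and 876, 1086 and 961, and 474 and 331 in the same order. Here both *10xBulge* libraries were below all others, and the gene fell by 1.66 on the log2 scale (SE 0.46, limma adjusted p = 0.0269). The call for *Col18a1* was kept only without N6, with a fold change of 0.73 to 1.83 over the 6 omissions, and the call for *Col15a1* was lost without N1. Of 13 other settings, 8 kept the call for *Col18a1* and 12 that for *Col15a1*. With the spermatocyte list set equal both calls were lost, and with the Sertoli list set equal that for *Col18a1* was lost.

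None of the 6 type IV chains passed the test. *Col4a1* and *Col4a2* encode the 2 chains of the trimer found in nearly all basement membranes. *Col4a1* stood at 2744 and 2045 in wild type, 1033 and 1183 in *10xPerf* testes and 6301 and 1254 in *10xBulge*, and *Col4a2* at 2069 and 1616, 888 and 1230.1, and 3332 and 1095. In both genes N5 was the highest library and N6 lay below both wild type libraries, so that the differences from wild type, 0.25 (95% confidence interval -1.25 to 1.75) and 0.06 (-1.16 to 1.28), had wide intervals. Without N5 they were -0.92 and -0.74.

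*Col4a3* and *Col4a4*, whose chains join that of *Col4a5* in specialised membranes such as that of the kidney glomerulus, differed from each other. *Col4a3* was at 1388 and 674 in wild type, 613 and 435 in *10xPerf* testes and 658 and 531 in *10xBulge*. *Col4a4* was at 1684 and 1799.8, 1113 and 1476, and 2694 and 1576. *Col4a3* was lower in *10xBulge* without overlap (-0.71, SE 0.46, limma adjusted p = 0.294), whereas the *Col4a4* libraries overlapped. *Col4a5* was at 538 and 463, 309 and 358, and 945 and 513, and *Col4a6*, which pairs with it in another trimer, at 309 and 217, 161 and 157, and 456 and 199. In these 2 genes N5 was again the highest library and N6 lay between or below the wild type libraries. Over the 8 basement membrane genes N5 exceeded N6 in all 8, by a median log2 difference of 0.99 and between 0.31 and 2.33, beside 0.15 over all genes tested. The median fold change of the class was therefore -0.56 without N5 and 0.84 without N6. N5 is also the library with the highest sum of the fat cell markers, and fat cells are wrapped in a type IV basement membrane. Their part in these values was not tested.

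The largest differences were found among the 25 other collagens, and within them among the FACITs. Of 8 FACIT genes tested 7 fell (87.5%, against 23.0% of all genes), with a median log2 fold change of -2.66, and between 5 and 7 of them fell under each of 4 other scalings. With 1 library left out, 4 (without N1) to 7 fell. *Col22a1*, the chain of a collagen known from tissue junctions such as that of muscle and tendon, stood at 12628 and 7885 normalized counts in wild type testes, 10506 and 11698 in *10xPerf*, and 257 and 124 in *10xBulge*. *Col20a1*, a FACIT with little known function, stood at 5929 and 4000.0, 2901 and 4699, and 170.2 and 147. *Col9a3*, a chain of the type IX collagen of cartilage, stood at 374 and 226, 320 and 218, and 13.9 and 21.6. In these 3 genes both *10xBulge* libraries lay far below the 4 others, which overlapped each other. Against wild type *Col22a1* fell by 5.79 on the log2 scale (SE 0.47, 95% confidence interval -6.85 to -4.74, limma adjusted p = 2.23e-05), a 53.8-fold difference of means. *Col20a1* fell by 4.94 (SE 0.42, limma adjusted p = 3.04e-05), a 31.3-fold difference of means, and *Col9a3* fell by 3.99 (SE 0.49, limma adjusted p = 0.000283), a 16.9-fold difference. The spermatid markers fell in the same libraries, with a median of -8.33, and their part in the FACIT result was not tested.

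*Col14a1*, a FACIT that regulates fibril diameter, followed with 306 and 623 in wild type, 532 and 611 in *10xPerf* testes and 79.7 and 34.8 in *10xBulge* (log2 fold change -3.02, limma adjusted p = 0.00278). *Col19a1*, *Col16a1* and *Col9a1* fell by 2.30, 1.37 and 1.26 on the log2 scale. *Col16a1* had 2782 and 1577 in wild type, 3304 and 1717 in *10xPerf* testes and 675 and 974 in *10xBulge*. The calls for *Col16a1* and *Col9a1* were not stable, since the first was kept only without N2 or N6 and the second only without N5, and that for *Col19a1* was lost without N1. *Col12a1* was the one tested FACIT that did not fall, at 319 and 498 in wild type, 561 and 415 in *10xPerf* testes and 106 and 424 in *10xBulge* (-0.90, limma adjusted p = 0.323), where N6 lay within the range of wild type.

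The chains of the beaded filament collagen, type VI, which surrounds cells with fine microfibrils, divided by gene. *Col6a1*, *Col6a2* and *Col6a3* encode the classical trimer. *Col6a1* stood at 960.4 and 637 in wild type, 639 and 809.9 in *10xPerf* testes and 2512 and 872 in *10xBulge*, *Col6a2* at 626 and 376, 327 and 427, and 1096 and 424, and *Col6a3* at 557 and 265, 339.6 and 296, and 1128 and 477. In all 3 genes N5 was the highest library, N6 lay between the wild type libraries, and the differences of 0.92, 0.49 and 0.93 did not pass the test (limma adjusted p = 0.239, 0.533 and 0.236). Of the 3 chains that can replace that of *Col6a3*, *Col6a4* fell, *Col6a6* rose and *Col6a5* did neither. *Col6a4* stood at 1869 and 1244, 1079.7 and 1867, and 522 and 274, a log2 fold change of -2.01 (SE 0.48, limma adjusted p = 0.0146). *Col6a6* stood at 18.9 and 17.7, 65.8 and 17.5, and 107 and 83.9, a log2 fold change of 2.31 (SE 0.66, limma adjusted p = 0.0308). *Col6a5* stood at 180.3 and 244, 370.4 and 271, and 385 and 253 (0.57, limma adjusted p = 0.372). The 3 genes lie in a row on chromosome 9, with *Col6a5* between *Col6a6* and *Col6a4*. The call for *Col6a4* was lost without N1, and that for *Col6a6* without N1, without N2 and with the Sertoli list set equal.

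Among the transmembrane collagens, which sit in the plasma membrane, *Col23a1* fell from 609 and 407 in wild type to 52.01 and 52.29 in *10xBulge*, with 301 and 445 in *10xPerf* (log2 fold change -3.23, SE 0.44, limma adjusted p = 0.000519). *Col17a1*, a part of hemidesmosomes in skin, was at 172 and 151, 406 and 323, and 149 and 62.9, and *Col25a1* at 169 and 257, 555 and 426, and 103 and 167. Both were highest in *10xPerf* and, like *Col13a1*, did not pass the test against wild type. *Col26a1*, which stands outside the usual subclasses, was at 493 and 277 in wild type, 795 and 153 in *10xPerf* testes and 15.5 and 34.8 in *10xBulge*, and fell by 3.93 on the log2 scale (SE 0.76, limma adjusted p = 0.00459). *Col28a1* was at 55.7 and 91.6, 178 and 145, and 38.0 and 34.5 (-0.96, limma adjusted p = 0.174). Of the short-chain and anchoring collagens, *Col8a1* was at 122 and 114 against 60.8 and 48.3, *Col8a2* at 137 and 102 against 139.8 and 195, and *Col7a1*, the anchoring fibril of skin, at 33.3 and 33.7 against 11.7 and 146. None of these 3 passed the test, and in *Col7a1* the 2 *10xBulge* libraries lay on either side of wild type.

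**Figure D3:**
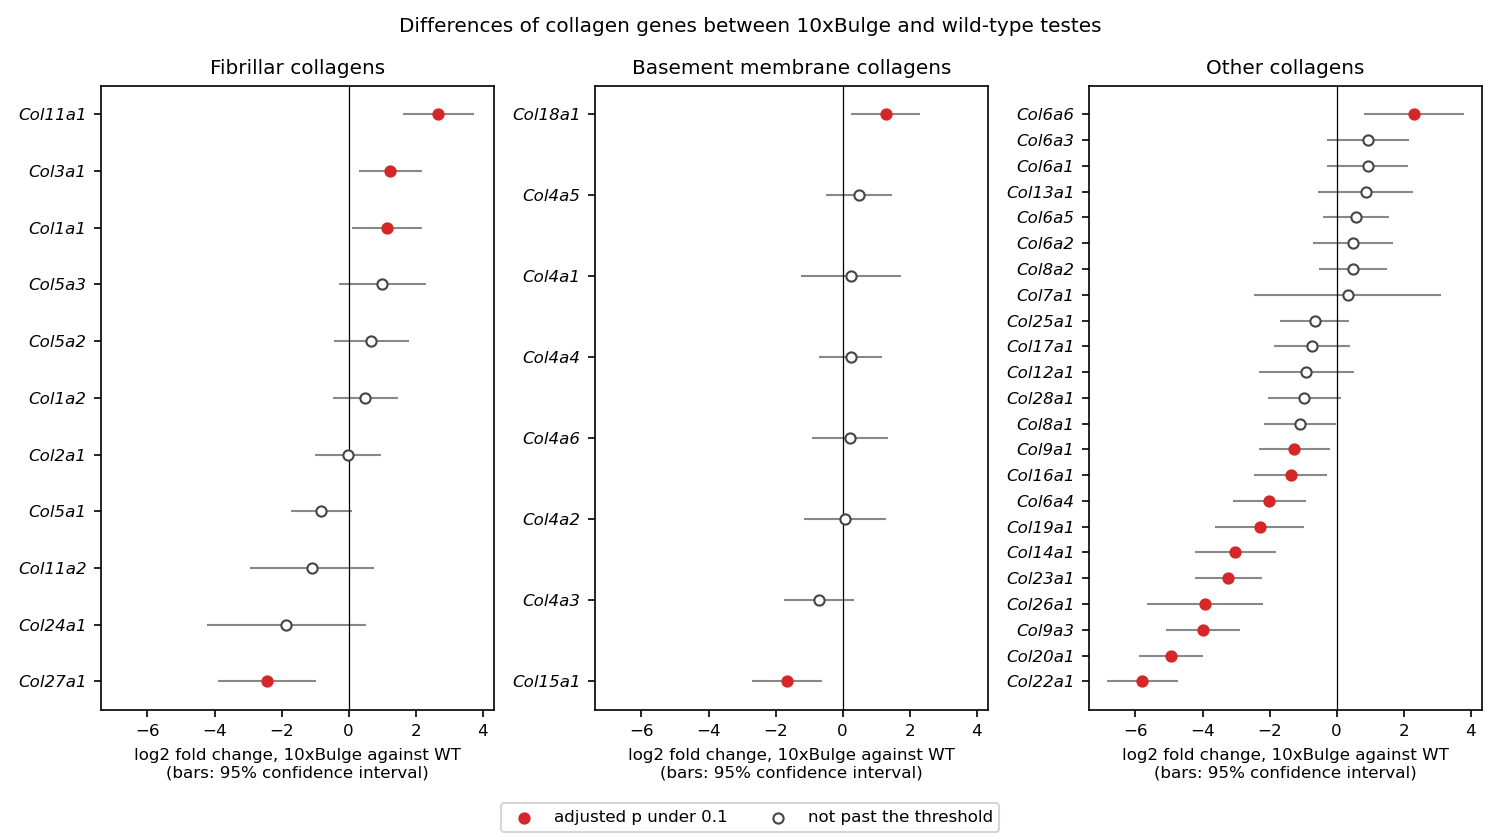
Log2 fold change of each tested collagen gene between *10xBulge* (2 libraries) and wild type (2 libraries), by class; bars are 95% confidence intervals of the limma fit and filled points passed an adjusted p of 0.1. The other collagens reach down to -5.79 in *Col22a1*, and the type IV chains lie around 0 with intervals that include it.

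The comparison of *10xPerf* with wild type asks the same of testes with 10 perfectly paired sites. It uses the same wild type libraries. No collagen gene passed the test (0 of 42 in either direction in limma, against 0.467% of all genes higher and 0.492% lower), and none of the other settings gave a call. The 4 genes with the smallest p were *Col5a1*, *Col25a1*, *Col28a1* and *Col17a1*. *Col5a1* was at 1068 and 916 in wild type and 551 and 389.7 in *10xPerf* (-1.09, SE 0.41, limma adjusted p = 0.651). *Col25a1*, *Col28a1* and *Col17a1* differed by 1.22, 1.16 and 1.16 (limma adjusted p = 0.669, 0.763 and 0.799). In each of these 4 genes the libraries of the 2 genotypes did not overlap. Over all 42 genes, 5 were higher without overlap (11.9%, against 20.2% of all genes) and 13 lower (31.0%, against 19.8%). The basement membrane genes made up 7 of these 13. All 8 had a difference below 0, with a median of -0.64 beside 0.018 for all genes, and the median of the class was between -0.71 and -0.49 under the 4 other scalings and -0.36, with 6 of 8 below 0, after a trend with GC content was removed. *Col4a1* was lowest relative to wild type, with a difference of -1.10 and a confidence interval of -2.60 to 0.40 (limma adjusted p = 0.853). *Col4a3*, *Col4a2*, *Col4a6*, *Col4a5* and *Col4a4* differed by -0.90, -0.81, -0.70, -0.58 and -0.44. In *Col15a1* the libraries overlapped. With 2 libraries each, none of these differences passed the test, also with only the 2 genotypes compared. In the main fit the spread is shared over all 6 libraries and includes the gap between N5 and N6 (2.33 in *Col4a1*). It is therefore not the spread of the wild type and *10xPerf* libraries alone. The fat cell markers were lower in *10xPerf* too, with a sum of 315 and 542 against 717 and 1017 and 5 of 6 genes without overlap, and their part in the basement membrane values was not tested. Of the other marker lists none held a gene past the threshold in this comparison.

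The comparison of *10xBulge* with *10xPerf* sets the mismatched against the perfect sites, and shares the *10xBulge* libraries with the first comparison. Of the 42 genes 7 were higher past the threshold (16.7%, against 12.9% of all genes) and 14 were lower (33.3%, against 24.1%). The libraries did not overlap in 16 genes that were higher (38.1%, against 30.7%) and in 17 that were lower (40.5%, against 35.3%). The 7 genes that were stable against wild type were past the threshold here as well under all 13 other settings and 6 omissions. *Col22a1* differed by -5.95 (limma adjusted p = 1.77e-05), *Col20a1* by -4.54 (limma adjusted p = 4.60e-05), *Col9a3* by -3.85 (limma adjusted p = 0.000334) and *Col11a1* by 2.27 (limma adjusted p = 0.0061). Some genes passed the threshold here and not against wild type, and in these the mean of *10xPerf* lay on the far side of wild type from that of *10xBulge*. *Col28a1*, *Col25a1* and *Col17a1* fell by 2.12, 1.88 and 1.89 on the log2 scale (limma adjusted p = 0.0102, 0.0144 and 0.0214), and *Col13a1*, *Col5a3* and *Col8a2* rose by 2.16, 1.81 and 1.42 (limma adjusted p = 0.031, 0.0425 and 0.0433). *Col13a1* was at 40.7 and 29.2 in wild type, 22.7 and 7.87 in *10xPerf* testes and 73.6 and 55.01 in *10xBulge*. Among the basement membrane genes *Col18a1* rose by 1.62 (limma adjusted p = 0.0278) and *Col4a5* by 1.07 (limma adjusted p = 0.0979), whereas *Col15a1* fell by 1.37 (limma adjusted p = 0.0536). *Col1a2* rose by 1.05 (limma adjusted p = 0.0978), a call that was kept only without N4. The calls for *Col28a1*, *Col25a1* and *Col17a1* were lost without N3. That for *Col13a1* was lost without N4 or N5, those for *Col5a3* and *Col18a1* without N3, N4 or N5, those for *Col8a2* and *Col15a1* without N3, N4 or N6, and that for *Col4a5* was kept only without N6. With the Sertoli list set equal the calls for *Col13a1*, *Col5a3*, *Col8a2*, *Col18a1*, *Col4a5* and *Col1a2* were lost, and with the spermatocyte list set equal those for *Col5a3*, *Col8a2*, *Col18a1*, *Col15a1*, *Col4a5* and *Col1a2*. The medians were 0.75 for the fibrillar, 0.90 for the basement membrane and -1.55 for the other genes, and with the Sertoli list set equal the first 2 were -0.32 and -0.18.

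Genes whose products act on collagens were followed in lists chosen by function. The first list holds enzymes and chaperones that modify and fold the chains in the endoplasmic reticulum. Of 15 tested, 6 rose in *10xBulge* against wild type and none fell (11.4% of all genes rose and 23.0% fell), and the median log2 fold change was 1.01, or 0.08 with the Sertoli list set equal, where 1 rose. *Plod2*, the lysyl hydroxylase of the telopeptides, was at 211 and 446 in wild type, 340.0 and 578 in *10xPerf* testes and 1571 and 1385 in *10xBulge* (2.26, SE 0.48, limma adjusted p = 0.00809). *P3h4*, a partner of a prolyl hydroxylase complex, and *P3h1*, a prolyl 3-hydroxylase, rose by 2.16 and 1.54 (limma adjusted p = 0.0153 and 0.0336). The 2 *10xBulge* libraries were above all others in these 3 genes. In *P4hb*, the beta subunit of prolyl 4-hydroxylase, and *Serpinh1*, the collagen chaperone HSP47, the libraries overlapped. *P4ha3* and *Colgalt2* were below the filter.

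Of 14 genes of secretion, propeptide cleavage and cross-linking 4 rose and none fell, beside the same 11.4% and 23.0% of all genes, which also apply to the lists that follow. They were *Loxl4*, a lysyl oxidase-like enzyme (2.32, limma adjusted p = 0.017), *Bmp1*, the procollagen C-proteinase (1.26, limma adjusted p = 0.0647), its enhancer *Pcolce* (1.19, limma adjusted p = 0.0871) and *Loxl2* (1.12, limma adjusted p = 0.0931), and with the Sertoli list set equal none rose. Of 7 tested genes of collagen breakdown and its inhibitors 5 rose and none fell, and 1 rose with the Sertoli list set equal. *Timp1*, an inhibitor of metalloproteinases, was at 19.1 and 43.8 in wild type, 10.3 and 17.9 in *10xPerf* testes and 390.3 and 349.6 in *10xBulge* (3.63, SE 0.57, limma adjusted p = 0.00125). *Ctsk*, the collagen-degrading cathepsin, rose by 1.67 (limma adjusted p = 0.0471) and *Timp2* by 1.41 (limma adjusted p = 0.0519). *Mmp3* and *Mmp8* were at 0 in all libraries, and *Mmp13* was below the filter.

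The receptors of collagen split. Of 9 tested, *Ddr1*, a receptor tyrosine kinase activated by collagen, rose by 2.003 (limma adjusted p = 0.00571) and *Itgb1*, the shared beta subunit of the collagen-binding integrins, by 1.68 (limma adjusted p = 0.0479). Of the alpha subunits, *Itga2*, *Itga11* and *Itga1* fell, with log2 fold changes of -3.29, -2.497 and -1.42 (limma adjusted p = 0.000700, 0.00347 and 0.0343). *Itga2* was at 125 and 172 in wild type, 309 and 228 in *10xPerf* testes and 12.6 and 15.96 in *10xBulge*. Under the Sertoli scaling 1 receptor rose and 5 fell. Of 15 laminins, nidogens and basement membrane proteoglycans 6 rose and 1 fell, with a median of 1.02, or 0.10 with the Sertoli list set equal, where none rose. *Nid2*, *Lama1* and *Lama4* rose by 1.63, 1.57 and 1.39 (limma adjusted p = 0.0122, 0.0216 and 0.0351) and *Lamb3* fell by 1.95 on the log2 scale (limma adjusted p = 0.00831). *Lama1* was at 942 and 767 in wild type, 754 and 900 in *10xPerf* testes and 3221 and 1966 in *10xBulge*. N6 was thus above wild type in *Lama1*, which it was not in *Col4a1*. Of 10 proteoglycans and glycoproteins on fibrils 1 rose, *Dcn*, which encodes decorin and is also in the stroma list (1.503, limma adjusted p = 0.0808). These counts moved when 1 library was left out. Without N5, 2 genes of the modification list rose, 1 of secretion, 2 of breakdown and 3 of the laminin list, and without N1 the counts were 4, 2, 2 and 2. The lowest were 2 for modification (without N2 or N5), 1 for secretion (without N2, N3, N4 or N5), 1 for breakdown (without N4) and 2 for laminins (without N1), and without N6 they were 10, 4, 5 and 6. In *10xPerf* no gene of these 6 lists passed the test. Of 7 peritubular myoid markers 1 rose, *Mylk* (1.30), and 1 fell, *Actg2*, from 11533 and 7921 in wild type to 397 and 228 in *10xBulge*. The other 5 did not pass, with differences between -0.32 (*Cnn1*) and 0.80 (*Acta2*). *Actg2* stood above *Acta2* in wild type (4261 and 2340), and whether its RNA came from myoid cells was not tested. None of 7 endothelial markers passed.

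**Figure D4:**
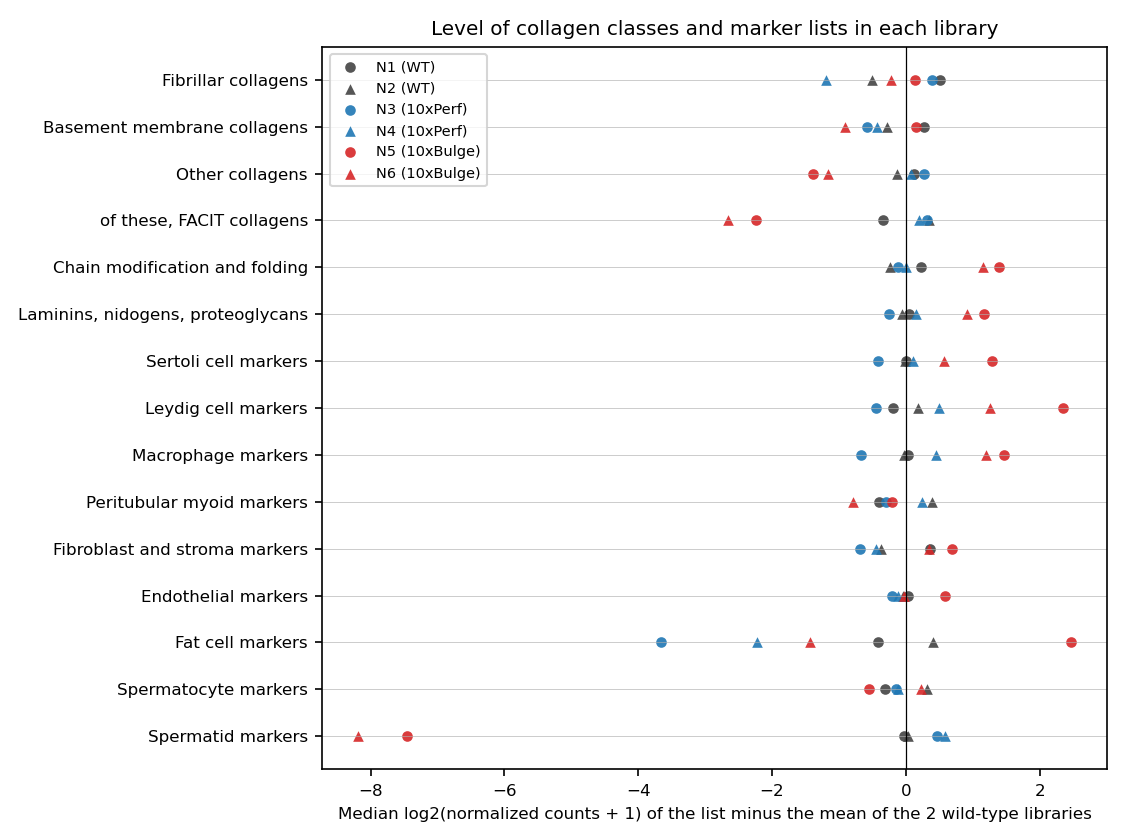
Median log2 level of each list in each library minus the mean of the 2 wild type libraries (horizontal axis, log2 of normalized counts plus 1; each point is 1 library). The *10xBulge* libraries lie lowest for the FACITs and the spermatid markers and highest for the chain modification, laminin, Sertoli, Leydig and macrophage lists; the median level of a list is another quantity than the median of its genes' fold changes.

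Chains that share a trimer were compared as log2 ratios within each library, which do not depend on the scaling. The ratio of *Col4a5* to *Col4a6* stayed between 0.80 and 1.37 over the 6 libraries, and that of *Col6a1* to *Col6a2* between 0.62 and 1.20. The ratio of *Col4a1* to *Col4a2* ranged from -0.06 to 0.92, with N5 highest. The ratios of *Col1a1* to *Col1a2* (-1.49 to -0.12), *Col4a3* to *Col4a4* (-2.03 to -0.28) and *Col5a1* to *Col5a2* (2.23 to 4.03) moved more. *Col4a1* and *Col4a2* start 21 bases apart on opposite strands of chromosome 8, at 11312826 and 11312805 in GRCm38, and *Col4a3* and *Col4a4*, and *Col4a5* and *Col4a6*, are neighbours too, as are *Col6a1* and *Col6a2* on chromosome 10.

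Libraries of 1 genotype also differed. *Col4a1* differed by 2.33 between N5 and N6, and between N1 and N2 the collagen genes had a median difference of 0.43, with 32 of 42 higher in N1, beside 0 over all genes. The transcripts of the tested collagen genes had a median GC content of 55.1%, beside 48.6% over the 23614 tested genes with a value. The promoters in RefSeq (GRCm38.p6, windows around each start) gave 38 sequences for 35 of the 44 genes. *Col22a1*, *Col9a3*, *Col14a1*, *Col26a1*, *Col1a1* and *Col2a1* were among the genes without one, so the shares below do not cover them. The GC box GGGCGG, on either strand, was in 60.5% of them and in 35.7% of all 32851 promoters, the CCAAT box CCAAT in 34.2% and 37.4%, and the TATA box TATAAA in 13.2% and 13.6%. These matches are letters in a window and not binding sites.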

How the data were processed

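Total RNA of whole adult mouse testes was depleted of ribosomal RNA (Ribo-Zero Plus, stranded) and sequenced as single-end reads. The authors quantified transcripts with salmon on GRCm39 (Ensembl release 104) and deposited, per gene, counts normalized with DESeq2; this deposited signal is not whole reads (7.22% to 10.5% of values were whole multiples of the value of 1 read, tolerance 0.001), so no count model was used. The members and the gene lists were chosen with earlier results of these data known. The table also holds log2 fold changes and adjusted p-values of the authors' own comparisons with wild type and the mean of the 6 libraries, none of which were used. From the deposited values, log2(value + 1) of 23782 genes with at least 10 in at least 2 of 6 libraries was fitted with limma 3.58.1 (R 4.3.3; lmFit, eBayes with trend, 1 genotype term over the 6 libraries), with Benjamini-Hochberg adjustment over all genes and a threshold of 0.1. Every member may be named; full values went to types I, III, IV, V, VI, XV and XVIII and to up to 3 genes per class, direction and comparison with the smallest p past the threshold and no overlap; up to 3 genes per other list, direction and comparison were named by the same rule, and marker genes as a check of the tissue. The libraries were treated as different mice. Transcript lengths, GC content and coding sequences came from GENCODE M21 (GRCm38), another build than the authors' quantification, and were used for lengths and sequences only. The code was tested on simulated data. The 20 libraries of RNA from MILI and MIWI immunoprecipitations were not analysed here. Alternatives covered scaling, filter, pseudocount, threshold, GC content (loess, span 0.3) and each library left out.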

Additional observations from a re-analysis of the deposited data

How the results depend on the processing

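With 2 libraries per genotype, a fit without 1 library assumes that the lone library of its genotype varies like the others. No paired analysis was possible because the replicate numbers differ between genotypes. Between *10xBulge* and wild type 5 collagen genes rose; the count was 9 with library totals, 1 with the Sertoli list set equal, 2 with the spermatocyte list set equal, 2 with only the 2 genotypes compared, 2 at an adjusted p under 0.05, 3 without the mean-variance trend, and 1 to 9 with 1 library left out. The count that fell was 12; it was 19 with the Sertoli list set equal and 6 (without N1) to 13 (without N2) with 1 library left out. Between *10xBulge* and *10xPerf* the counts of 7 higher and 14 lower became 16 higher with library totals, 1 higher with the Sertoli list and 2 higher with the spermatocyte list set equal; with 1 library left out they were 2 (without N4) to 13 (without N6) higher and 7 (without N3) to 14 lower. Against wild type, *10xPerf* had 0 calls throughout. Over all genes, 33.2% of calls between *10xBulge* and wild type were higher, beside 54.7% with library totals and 2.68% with the Sertoli list set equal; between *10xBulge* and *10xPerf* the values were 34.9%, 49.5% and 2.61%, and 17.4% with the spermatocyte list. Without 1 library these shares went as low as 14.0% against wild type (without N1) and 10.1% against *10xPerf* (without N3; 22.2% without N5). The cause of these shifts was not tested.

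With the Sertoli list set equal, the difference between *10xBulge* and wild type changed sign in *Col4a5* (-0.44), *Col4a4* (-0.68), *Col4a6* (-0.70), *Col4a1* (-0.68), *Col4a2* (-0.86), *Col5a2* (-0.24), *Col1a2* (-0.44), *Col6a1* (-0.0044), *Col13a1* (-0.041), *Col6a5* (-0.35), *Col8a2* (-0.44), *Col6a2* (-0.43) and *Col7a1* (-0.54), and that between *10xBulge* and *10xPerf* in *Col4a5* (-0.0086) and *Col1a2* (-0.021). *Col2a1* changed sign with library totals (0.36), the upper quartile (0.0010), the spermatocyte list (0.14) and GC content removed (0.14). With 1 library left out, the difference from wild type changed sign in *Col4a4* (-0.14 to 0.63), *Col4a6* (-0.38 to 0.82), *Col4a1* (-0.92 to 1.41), *Col4a2* (-0.74 to 0.87), *Col11a2* (-2.34 to 0.14), *Col2a1* (-0.38 to 0.33), *Col12a1* (-1.90 to 0.089), *Col6a2* (-0.19 to 1.18) and *Col7a1* (-1.44 to 2.09). None of these genes passed the threshold against wild type.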
